A study of Mus musculus with 18 samples.

Results

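The cytosolic ribosomal protein genes are the genes for the proteins of the ribosome that translates messenger RNA in the cytoplasm. They were taken from the gene count table by symbol: every name that starts with Rpl or Rps followed by a digit, plus Rplp0, Rplp1, Rplp2 and Rpsa, without the S6 kinases (Rps6k) and without pseudogenes marked "-ps". The rule found 87 of the 24015 genes in the table. By name, 31 of them encode small subunit proteins, 43 large subunit proteins and 3 the stalk, 9 are paralogs of another member, and 1, Rps19bp1, encodes a protein that binds Rps19 and is not part of the mature ribosome.

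RNA was sequenced from fluorescent (tdTomato-positive) neurons sorted from mouse cortex at postnatal day 5, with some 25000 cells going into each sample. The 12 libraries form 3 groups of 4, namely layer 6 neurons of wild type (WT) mice, layer 6 neurons of Tbr1 null mice, and layer 5 neurons of WT mice. The 6 chromatin samples of the series (CD1 cortex, postnatal day 2) were not used here. Tbr1, a gene of the T-box family, encodes a DNA-binding regulator made in deep cortical layers, and the series title asks how its dose after birth affects the connections of layer 6. All 8 layer 6 libraries carry sequencing batch A, layer 5 replicates 1 and 2 carry batch B, and layer 5 replicates 3 and 4 carry batch C, so layer and batch cannot be told apart.

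The genotype label ties the null to layer 6, but the design text calls it constitutive, so the group is named null without either word. For these mice, the sources used here do not give the strain, the allele, the sex or the driver of tdTomato. No label says whether the 4 libraries of a group were made from different animals. The p-values therefore measure the spread between libraries, which may be technical. In sorted bulk samples, fewer cells of a type and less RNA per cell cannot be told apart.

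A ribosome consists of ribosomal RNA and of proteins that are made in nearly equal numbers, the small subunit decoding the messenger RNA and the large subunit joining the amino acids. The messenger RNAs of ribosomal proteins start with a tract of pyrimidines, through which the mTOR kinase pathway controls their translation. In neurons they are among the transcripts found in axons and dendrites, where proteins are made locally.

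Library totals ranged from 27465597 to 54899002 counts. Tbr1 had 176 ± 6.84 CPM (counts per 1000000 counts of the library; mean ± SD, n = 4) in WT layer 6, 94.7 ± 2.42 in null layer 6 and 42.6 ± 2.37 in WT layer 5, and counts over a whole gene do not show whether the deleted part was read. The 12 neuron markers were present in every library and summed to between 7798 and 8119 CPM (WT layer 6), 7426 and 7657 CPM (null layer 6) and 6233 and 6269 CPM (WT layer 5). The precursor of ribosomal RNA, Rn45s, took from 0.384 to 0.723% of a WT layer 6 library, from 0.592 to 2.67% of a null library and 1.23% ± 0.0168 (SD, n = 4) of a layer 5 library, although ribosomal RNA had been depleted. The WT layer 6 libraries fell into pairs: replicates 1 and 2 had 0.458 and 0.448 CPM of Xist, against 289 and 287 CPM in replicates 3 and 4. Xist was at 262 to 299 CPM in the null libraries and at 39.5 to 41.1 CPM in layer 5.

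The 87 genes together took a larger share of the library in layer 5 than in layer 6. In WT layer 6 they held 3.18, 3.13, 3.18 and 3.17% of all counts in replicates 1 to 4. In null layer 6 they held 3.05, 3.08, 3.06 and 3.05%. In WT layer 5 they held 4.83, 4.87, 4.86 and 4.90%. The 3 groups did not overlap: every layer 5 library was above every layer 6 library, and the 4 null libraries lay just below the 4 WT layer 6 libraries. With Rn45s left out of the totals, the mean shares were 3.18% ± 0.0252, 3.11% ± 0.0213 and 4.93% ± 0.0279 in WT layer 6, null layer 6 and WT layer 5 (SD, n = 4).

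**Figure D1:**
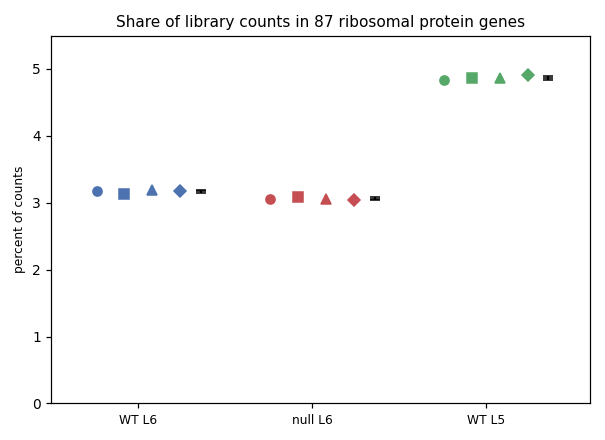
Share of library counts (percent, vertical axis, from 0) held by the 87 ribosomal protein genes in each library of WT layer 6, null layer 6 and WT layer 5. Circle, square, triangle and diamond are replicates 1 to 4 and the black mark is the mean with its SD; layer 5 libraries sit between 4.83 and 4.90%, layer 6 libraries between 3.05 and 3.18%.

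Between the layers, ribosomal protein genes were on the whole higher in WT layer 5. Of the 83 members with enough counts to be tested, 76 (91.6%) were higher in layer 5 and 5 (6.02%) lower at an adjusted p under 0.05 by edgeR's quasi-likelihood test with Benjamini-Hochberg adjustment. Of all 14927 genes tested, 85.5% were called, 42.2% higher and 43.4% lower. The median log2 fold change of the members was 0.59, a 1.5-fold higher level, beside -0.01 over all genes tested. Groups did not overlap for 75 members (90.4%) that were higher and 5 (6.02%) that were lower, beside 40.2% and 41% of all genes. The same counts of calls, 76 and 5, came from DESeq2, beside 41.6% and 42.5% of all genes.

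The size of the rise was uneven: 9 members (10.8%) were called and more than 2-fold higher in layer 5, beside 18.1% of all genes. Another 40 had a log2 fold change from 0.5 to 1, 19 from 0.2 to 0.5 and 8 from 0 to 0.2, and 7 lay below 0. Levels of different genes are not compared here, because counts also scale with transcript length.

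**Figure D2:**
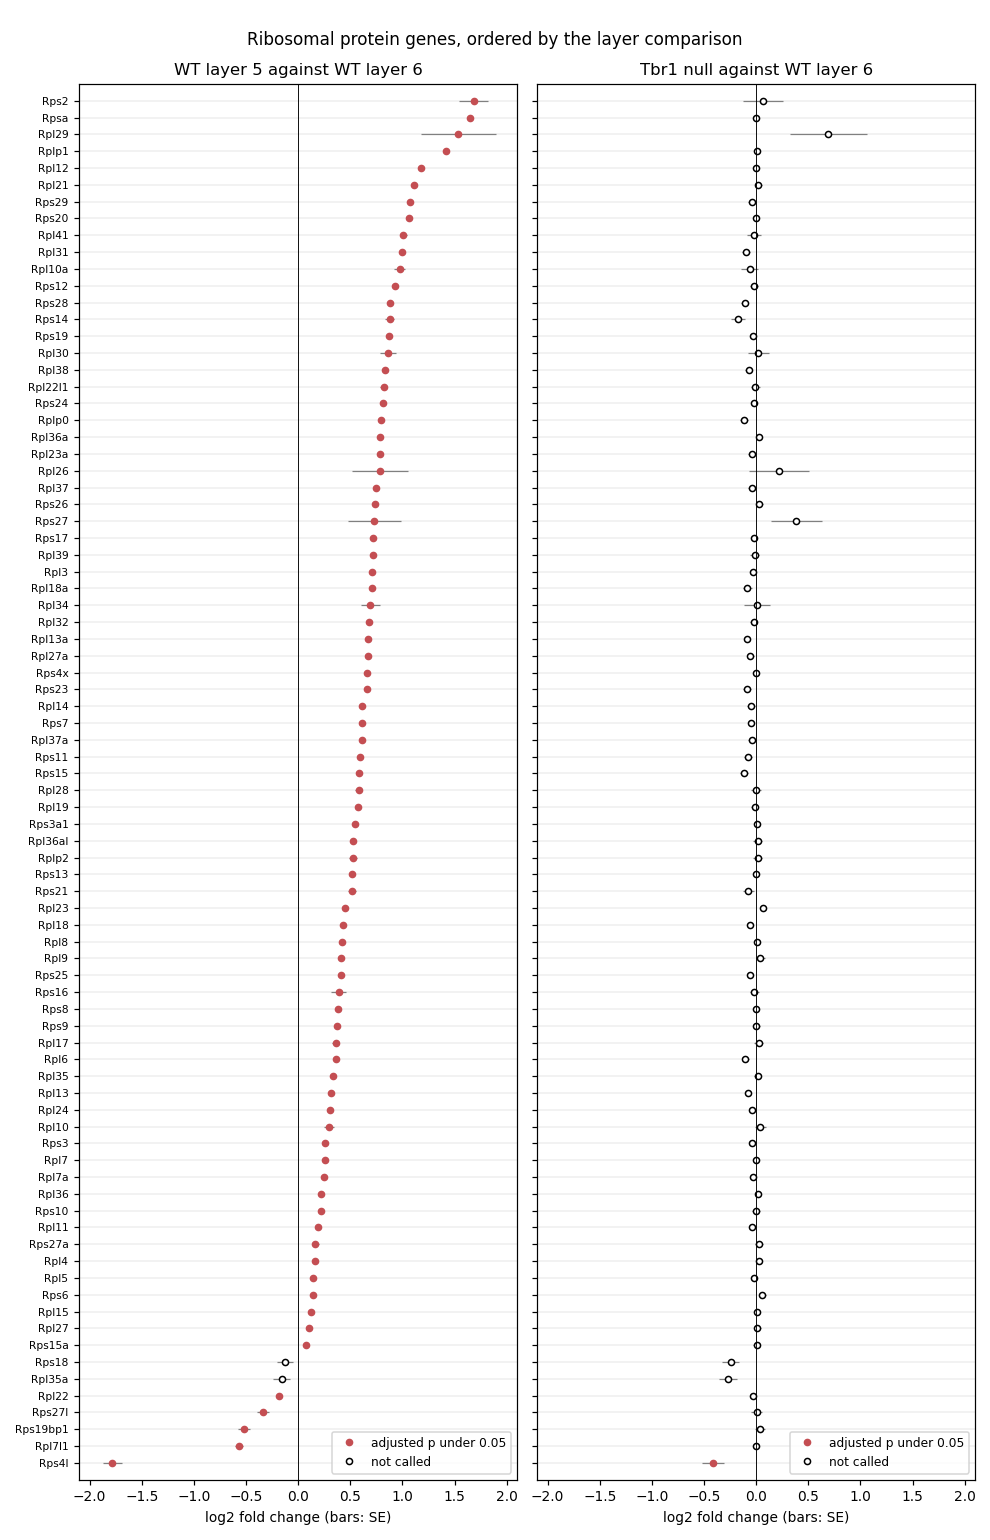
Log2 fold change of 82 tested members (horizontal axis; bars are the standard error) for WT layer 5 against WT layer 6 on the left and null against WT layer 6 on the right, with genes in the order of the left panel. Filled points passed an adjusted p of 0.05; 80 of those shown did on the left, from -1.78 for Rps4l to 1.68 for Rps2, and on the right Rps4l did.

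Among small subunit genes, 30 of 31 were higher in layer 5, with a median log2 fold change of 0.61. Rpsa, a small subunit protein that is also known as the laminin receptor precursor, was at 1095, 1094, 1112 and 1106 CPM in WT layer 6 and at 3415, 3449, 3473 and 3489 CPM in WT layer 5. The layers were far apart and the libraries within each differed little, giving a log2 fold change of 1.64 ± 0.019 (standard error, as in all ± values on fold changes; adjusted p = 1.51e-17). Rps2, which lines the path by which messenger RNA enters the small subunit, was at 496, 496, 304 and 303 CPM in WT layer 6 and at 1271, 1262, 1299 and 1311 CPM in layer 5. Its log2 fold change of 1.68 ± 0.14 (adjusted p = 2.66e-08) carried a wider error, since WT layer 6 replicates 1 and 2 were high and 3 and 4 low.

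Rps20 and Rps29, both of the head of the small subunit, were the other small subunit genes more than 2-fold higher. Rps20 was at 354, 358, 357 and 352 CPM in WT layer 6 and at 756, 741, 747 and 739 CPM in layer 5, a log2 fold change of 1.07 ± 0.019 (adjusted p = 1.12e-15). Rps29 differed by 1.08 ± 0.025 (adjusted p = 1.58e-14). Rps19, the gene most often mutated in Diamond-Blackfan anaemia, had a log2 fold change of 0.87 ± 0.025, from 370 ± 12.7 to 681 ± 3.83 CPM (SD, n = 4).

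At the lower end stood Rps15a, at 378, 392, 408 and 401 CPM in WT layer 6 and 415, 419, 424 and 416 CPM in layer 5. The groups did not overlap, and the log2 fold change of 0.079 ± 0.025 (adjusted p = 0.00904) was the smallest of the members that were higher. Rps6, the target of the S6 kinases, differed by 0.14 ± 0.027 and Rps27a, which encodes ubiquitin fused to a small subunit protein, by 0.16 ± 0.034. Rps18, a protein of the small subunit head, was the small subunit gene not called, with a log2 fold change of -0.13 ± 0.076 (adjusted p = 0.129). It was at 387, 370, 288 and 294 CPM in WT layer 6 and at 300, 309, 306 and 314 CPM in layer 5, so layer 5 lay inside the range of layer 6. WT layer 6 replicates 1 and 2 lay above every layer 5 library, and replicates 3 and 4 below every one.

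All 3 stalk genes were higher in layer 5. The stalk is the flexible arm of the large subunit that binds the translation factors. Rplp1 was at 441, 433, 424 and 428 CPM in WT layer 6 and at 1174, 1162, 1149 and 1132 CPM in layer 5, a log2 fold change of 1.41 ± 0.021 (adjusted p = 1.56e-16). Rplp0, which anchors the stalk, rose less, by 0.80 ± 0.019, from 1199 ± 7.01 to 2087 ± 32.7 CPM. Rplp2, the partner of Rplp1, rose by 0.53 ± 0.035, from 292 ± 16.6 to 421 ± 8.12 CPM. Rpl12, a large subunit protein at the base of the stalk, was at 396, 407, 415 and 406 CPM in WT layer 6 and at 939, 930, 902 and 919 CPM in layer 5, a log2 fold change of 1.18 ± 0.022. In each of these 4 genes every layer 5 library was above every layer 6 library.

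Among the other large subunit genes the picture was alike, with 41 of 43 large subunit genes higher, 1 lower and a median log2 fold change of 0.58. Rpl21 was at 350, 361, 381 and 372 CPM in WT layer 6 and at 777, 800, 791 and 802 CPM in layer 5 (1.11 ± 0.026, adjusted p = 2.01e-14). Rpl41, one of the smallest proteins known, differed by 1.01 ± 0.034. Rpl5 and Rpl11, which with 5S ribosomal RNA bind MDM2 and so link ribosome assembly to p53, differed little, by 0.14 ± 0.021 and 0.19 ± 0.027. Rpl27 (0.11 ± 0.023) and Rpl15 (0.13 ± 0.022) were the large subunit genes with the smallest rise. Rpl35a was not called (-0.16 ± 0.086, adjusted p = 0.0961).

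Rpl22 was the large subunit gene that was lower in layer 5. It was at 328, 331, 322 and 325 CPM in WT layer 6 and at 295, 294, 283 and 284 CPM in layer 5. All 4 layer 5 libraries were below all 4 layer 6 libraries, and the log2 fold change was -0.18 ± 0.023 (adjusted p = 2.84e-06). Its paralog Rpl22l1 went the other way, from 46.2 ± 1.08 to 81.8 ± 2.85 CPM, a log2 fold change of 0.82 ± 0.034.

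**Figure D3:**
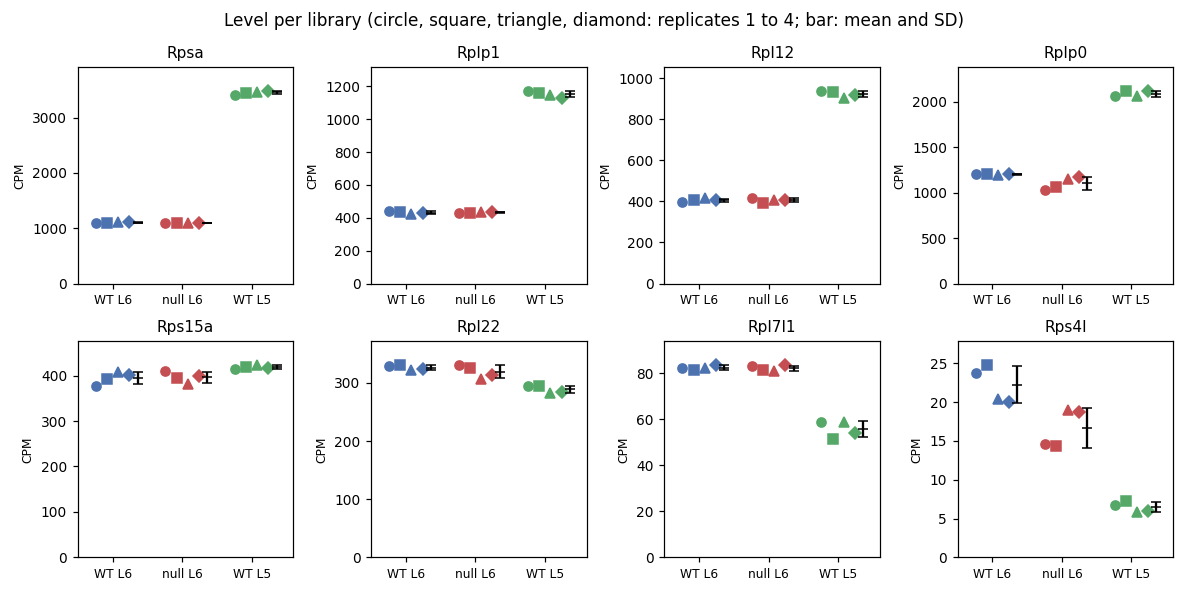
Level in CPM (vertical axes, from 0) of 8 members in the 4 libraries of each group, with replicates 1 to 4 as circle, square, triangle and diamond and the mean and SD in black. Rpsa, Rplp1, Rpl12 and Rplp0 are high in layer 5, Rps15a is nearly level, and Rpl22, Rpl7l1 and Rps4l are lower in layer 5.

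The paralogs went in both directions. Of the 5 paralogs with enough counts and Rps19bp1, 2 were higher in layer 5 (Rpl22l1 and Rpl36al) and 4 were lower (Rps4l, Rpl7l1, Rps27l and Rps19bp1), against 74 higher and 1 lower of the 77 core genes. Rps4l, a mouse copy of the X-linked Rps4x, was at 23.7, 24.8, 20.4 and 20.0 CPM in WT layer 6 and at 6.71, 7.22, 5.84 and 6.01 CPM in layer 5. Its log2 fold change of -1.78 ± 0.090 (adjusted p = 9.52e-11) was the largest fall among the members. Rps4x itself rose by 0.66 ± 0.020, from 755 ± 8.59 to 1200 ± 23.2 CPM.

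Rpl7l1, a paralog of Rpl7 that acts in the assembly of the large subunit, was at 82.4, 81.1, 82.2 and 83.7 CPM in WT layer 6 and at 58.7, 51.6, 58.8 and 53.8 CPM in layer 5. The groups did not overlap, and the log2 fold change was -0.57 ± 0.042, while Rpl7 rose by 0.26 ± 0.024. Rps19bp1 fell by 0.52 on the log2 scale (standard error 0.055), from 22.5 ± 1.01 to 15.8 ± 0.696 CPM, while Rps19 was higher in layer 5. Rps27l, a p53-responsive paralog of Rps27, fell by 0.34 (standard error 0.059), from between 20.4 and 23.3 CPM to between 16.8 and 18.6 CPM. Rpl36a and Rpl36al rose together, by 0.79 ± 0.027 and 0.53 ± 0.030.

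The count tables gave too few reads for 4 paralogs and little for 4 core genes. Rpl10l and Rps27rt had 0 counts in all 12 libraries, which allows a level of up to 0.0546 to 0.109 CPM per library, a limit of 3 counts that covers counting error only. Rpl3l, the muscle form of Rpl3, had at most 0.205 CPM and Rpl39l at most 0.357 CPM in a library. Rps27 and Rpl26, by contrast core proteins, had only 1.03 ± 0.317 and 0.505 ± 0.159 CPM in WT layer 6. Rpl30 and Rpl34 had 6.51 ± 0.326 and 5.34 ± 0.338 CPM. RefSeq names pseudogene copies ("-ps") for 64 members. Rps27, Rpl34, Rpl26 and Rpl30 have 2, 2, 6 and 10 of them, and Rps2 and Rpsa have 12 each. The sources used here do not say how reads shared with near-identical copies were counted. The levels of these 4 core genes are thus uncertain, and those of other members with copies may be too. Rps27 was called higher in layer 5 (0.73 ± 0.25, adjusted p = 0.0156), but not without layer 5 replicate 3 (0.59, adjusted p = 0.0637).

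Layer 5 libraries of both batches gave similar values. The level in batch C over batch B had a median log2 ratio of 0.02 over the members, from -0.23 to 0.09. Against WT layer 6, batch B libraries alone gave 74 members higher and 5 lower with a median of 0.58, beside 6036 and 6187 of all genes. Batch C libraries alone gave 74 and 5 with a median of 0.59, beside 5932 and 6141 of all genes. No label says whether the batches hold different material, so their likeness may not be an independent repeat. Rps16 split the layer 5 libraries across the batches, with 326 and 322 CPM in replicates 1 and 3 but 252 CPM each in replicates 2 and 4. Where layer 5 libraries were summed in pairs, replicates 1 and 3 were joined, and 2 and 4.

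Markers of other cell types moved with the layer. The 15 astrocyte markers summed to between 1229 and 1356 CPM (WT layer 6), 1484 and 1519 CPM (null layer 6) and 7797 and 7818 CPM (layer 5), and 14 of 15 were higher in layer 5. All 12 tested oligodendrocyte lineage markers (281 to 293, 270 to 284 and 1248 to 1259 CPM summed), all 13 microglial markers (142 to 150, 140 to 150 and 427 to 441) and all 12 tested vascular and blood markers (353 to 367, 330 to 334 and 767 to 785) were higher too, and 12 of 15 interneuron markers were lower. Aqp4, the water channel that defines astrocytes, was at 11.1 CPM in WT layer 6 and at 398 CPM in layer 5. The part of these cells in the ribosomal protein values was not tested.

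Start regions are shown for the core members with the highest and the lowest log2 fold change between the layers, among those with a mean of at least 5 CPM in WT layer 6 and a single start in the RefSeq promoter table, as the pyrimidine tract at the start of their messenger RNA is the feature these genes share. Each line gives 30 bases before and 30 after the annotated start in RefSeq GRCm38.p6, 5′ to 3′ on the gene's own strand, with the longest run of C and T in capitals. The first 4 genes are the highest and the last 4 the lowest.
Rps2 (chr17:24720033-24720092, + strand): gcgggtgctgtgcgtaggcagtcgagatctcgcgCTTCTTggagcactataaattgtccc
Rpsa (chr9:120127736-120127795, + strand): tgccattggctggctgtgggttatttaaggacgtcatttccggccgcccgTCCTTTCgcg
Rpl12 (chr2:32961682-32961741, + strand): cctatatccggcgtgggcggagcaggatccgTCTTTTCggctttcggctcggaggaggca
Rpl41 (chr10:128549139-128549198, - strand): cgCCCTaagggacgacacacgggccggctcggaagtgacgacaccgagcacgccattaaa
Rps18 (chr17:33955636-33955695, - strand): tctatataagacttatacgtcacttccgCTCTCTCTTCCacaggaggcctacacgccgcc
Rps15a (chr7:118116118-118116177, - strand): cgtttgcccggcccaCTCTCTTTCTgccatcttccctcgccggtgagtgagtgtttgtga
Rpl27 (chr11:101442215-101442274, + strand): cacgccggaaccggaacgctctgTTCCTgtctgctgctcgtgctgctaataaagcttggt
Rpl15 (chr14:18270957-18271016, - strand): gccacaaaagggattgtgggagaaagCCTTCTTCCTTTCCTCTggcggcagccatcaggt

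Runs differed in length from 4 bases (Rpl41) to 17 bases (Rpl15), and the annotated start base did not always coincide with the run. In Rpsa the run began 20 bases downstream. In Rpl41, Rps15a and Rpl27 it began at -28, -15 and -7 from the start and ended before it. Those longest runs thus lie outside the annotated transcript. In Rps15a a shorter run, not in capitals, spans the start, where a C is followed by more than 4 pyrimidines. Of 66 members with a promoter entry, 14 (21.2%) had a C at the annotated start followed by 4 pyrimidines, beside 3.01% of 27025 genes. A C followed by 6 pyrimidines within 25 bases of the start, a search added after the sequences were seen, was found in 37 members (56.1%) and 25.6% of all genes. In windows from 250 bases before to 50 after the start, both strands searched, CCGGAAG of the ETS family stood in 26 members (39.4%) and 9.93% of genes, and TATAAA in 7 (10.6%) and 15.7%. AGGTGTGA, a T-box motif of the kind that TBR1 can bind, stood in 0 members and 1.48% of genes. These are matches of letters, not binding sites.

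The other genes of translation did not move as 1 block between the layers. Of proteins of the cytosolic ribosome outside the symbol rule, Fau, a ubiquitin-like protein fused to a small subunit protein, was higher in layer 5 (0.45 ± 0.027). Gnb2l1, the ribosomal scaffold also called Rack1, was higher as well (0.32 ± 0.023). Of 9 genes listed as elongation factors, 8 were higher and 1, Eef1e1, was lower. Among the higher were Eef1a2, the form of neurons and muscle, by 1.51 ± 0.030 and Eef2, which moves the ribosome along, by 0.45 ± 0.019. Of 38 initiation factor genes, 8 were higher and 24 lower, among them Eif4a2, an RNA helicase (-1.56 ± 0.026). Their median was -0.25.

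Ribosome biogenesis and RNA polymerase I genes went the other way from the ribosomal proteins. Of 52 tested, 46 were lower in layer 5 and 4 higher, with a median log2 fold change of -0.60. Npm1, a nucleolar chaperone, was at 444 ± 10.1 CPM in WT layer 6 and 214 ± 4.81 CPM in layer 5 (-1.06 ± 0.025), and Nop58, a core protein of the particles that methylate ribosomal RNA, differed by -1.10 ± 0.046. In a list of 36 genes for mTOR signalling to translation, which also holds Rps6ka and Myc family genes, 18 were higher and 15 lower. Mtor itself was higher by 0.82 ± 0.030. Of 18 non-members whose transcripts start with a pyrimidine tract, 7 were higher and 11 lower, from -2.27 to 1.58 for Ybx1. Some of the 18, such as Npm1 and Eef2, are also counted in the lists above.

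Mitochondrial ribosomal protein genes, which build the ribosome inside mitochondria, were split: 23 of 77 were higher, 37 lower, and the median was -0.09. Nuclear genes of the respiratory chain and ATP synthase gave a count and a median close to those of the cytosolic ribosomal proteins, with 74 of 85 tested higher, 6 lower and a median of 0.58. These lists are set beside each other by counts and medians only, and no difference between lists was tested.

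**Figure D4:**
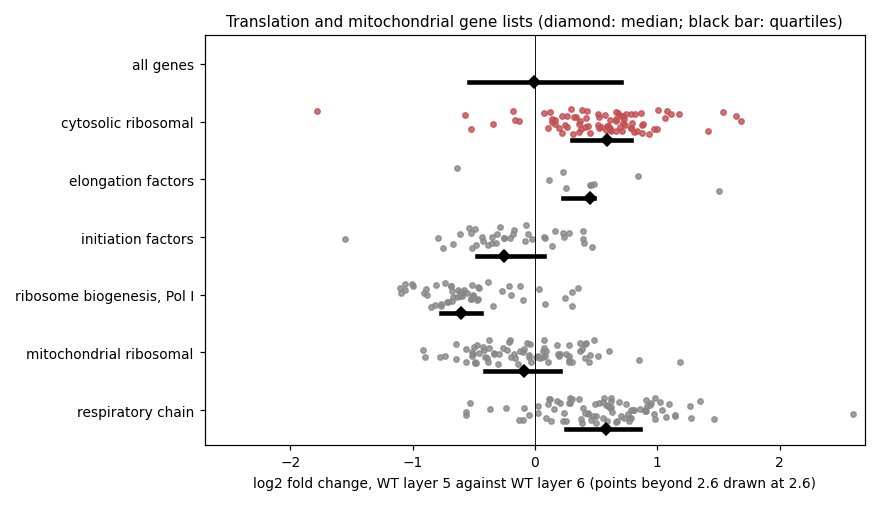
Log2 fold change of WT layer 5 against WT layer 6 (horizontal axis) for the genes of 6 lists, each point 1 gene, with the median as a diamond and the quartiles as a black bar; all genes tested are shown by median and quartiles alone. The medians are 0.59 for cytosolic ribosomal, -0.60 for ribosome biogenesis, -0.09 for mitochondrial ribosomal and 0.58 for respiratory chain genes.

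In Tbr1 null layer 6 the ribosomal protein genes stayed close to their WT layer 6 levels. None of the 83 tested members was higher and 2 (2.41%) were lower, beside 14.2% of 14588 genes called, 7.31% higher and 6.86% lower. At an unadjusted p under 0.05, 1 member (1.2%) was higher and 15 (18.1%) were lower, beside 13.7% and 13.4% of all genes. DESeq2 called 0 members higher and 9 (10.8%) lower, beside 8.52% and 7.86% of all genes. The median log2 fold change was -0.02, beside 0.00 over all genes, and 71 members (85.5%) lay within 0.1 of 0 on the log2 scale, beside 54.6% of all genes. The members' fold changes had a median standard error of 0.034. It was not taken over all genes, which include genes of lower counts, so the 2 shares near 0 may differ in precision.

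With Rn45s left out of the table, the counts were again 0 higher and 2 lower, beside 1072 and 990 of all genes. Among the 15 astrocyte markers, 7 were higher and 2 lower in null layer 6, with the sums given above. Of 15 interneuron markers, 1 was higher and 6 were lower, and they summed to between 511 and 541 CPM in WT and 482 and 496 CPM in null layer 6. Of 15 markers of dividing progenitors, 4 were higher (Mki67, Nes, Pax6 and Top2a) and 0 lower, with sums of 755 to 775 CPM in WT and 816 to 842 CPM in null layer 6. Of 10 tested oligodendrocyte lineage markers, 2 were higher and 5 lower. Of 12 tested vascular and blood markers 3 were lower, of 12 neuron markers 1 was higher and 3 lower, and of 13 microglial markers edgeR called none, with 1 higher and 1 lower at an unadjusted p under 0.05 and none by DESeq2. The part of these cells in the ribosomal protein values was not tested.

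Signs were uneven, with 54 members below 0 and 29 above. Groups did not overlap for 13 members (15.7%), 12 lower and 1, Rpl23, higher, beside 19.9% of all genes (9.79% lower and 10.1% higher).

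Rps4l, the paralog of Rps4x, was called lower. It was at 23.7, 24.8, 20.4 and 20.0 CPM in WT layer 6 and at 14.6, 14.3, 19.0 and 18.8 CPM in null layer 6, a log2 fold change of -0.41 ± 0.10 (adjusted p = 0.0181). The difference came mostly from replicates 1 and 2, which were high in WT and low in null, while replicates 3 and 4 were close. Leaving out WT replicate 1 or 2, or null replicate 1 or 2, ended the call, with adjusted p from 0.0538 to 0.0576. With the libraries summed 2 by 2, replicates 1 with 2 and 3 with 4, adjusted p was 0.239 for Rps4l, and 0 members were called. Of all genes, 249 were then higher and 230 lower.

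Several members near the threshold had values just below WT in null layer 6. Rplp0 was at 1199, 1202, 1189 and 1204 CPM in WT layer 6 and at 1027, 1058, 1153 and 1173 CPM in null layer 6 (-0.12 ± 0.039, adjusted p = 0.0568). The groups did not overlap, and null replicates 1 and 2 lay farthest from WT. Without null replicate 3 or 4, its adjusted p was 0.0381 or 0.0167. Rps28 (-0.11 ± 0.034, adjusted p = 0.0506) passed without null replicate 2 (adjusted p = 0.0133). Rps28 also passed with no scaling, upper quartile scaling, DESeq2 and all 3 groups in 1 fit, and Rplp0 with those except upper quartile. Rpl13 (-0.078 ± 0.025, adjusted p = 0.0552), whose groups did not overlap, passed with the same changes of scaling, tool and fit as Rps28. None passed with the replicate number as a block or with libraries summed in pairs. These genes are given as values and not as changes.

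A few members differed between library pairs within a group, and these were singled out after their values were seen. Of 81 members with a mean of at least 5 CPM, the mean of replicates 3 and 4 and that of replicates 1 and 2 differed more than 1.3-fold for 4 in WT layer 6 (Rpl29, Rps2, Rpl35a and Rps18) and for 2 in null layer 6 (Rps2 and Rps4l), and the median difference was 1.03-fold in both groups. Rpl29, a heparin-binding protein of the large subunit, was at 31.7 and 33.2 CPM in WT replicates 1 and 2, at 126 and 127 CPM in WT replicates 3 and 4, and at 126, 133, 130 and 129 CPM in null layer 6. In layer 5 it was at 228, 233, 233 and 240 CPM, above all layer 6 libraries, with a log2 fold change of 1.54 ± 0.36 (adjusted p = 0.00104) against WT layer 6 and of -0.85 ± 0.029 for null layer 6 against layer 5.

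The groups overlapped for Rpl29, and its log2 fold change between null and WT layer 6 was 0.69 ± 0.37 (adjusted p = 0.259). Rps2 showed the same split in both genotypes, at 516 and 510 CPM in null replicates 1 and 2 and at 324 and 321 CPM in 3 and 4. Rpl35a was at 181, 186, 138 and 138 CPM in WT layer 6 and at 131, 132, 135 and 136 CPM in null layer 6 (-0.27 ± 0.086, adjusted p = 0.0593), so that WT replicates 1 and 2 stood apart. Without WT replicate 3 or 4, the adjusted p was 0.0177 or 0.0168 for Rpl35a and 0.0211 or 0.0295 for Rps18.

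**Figure D5:**
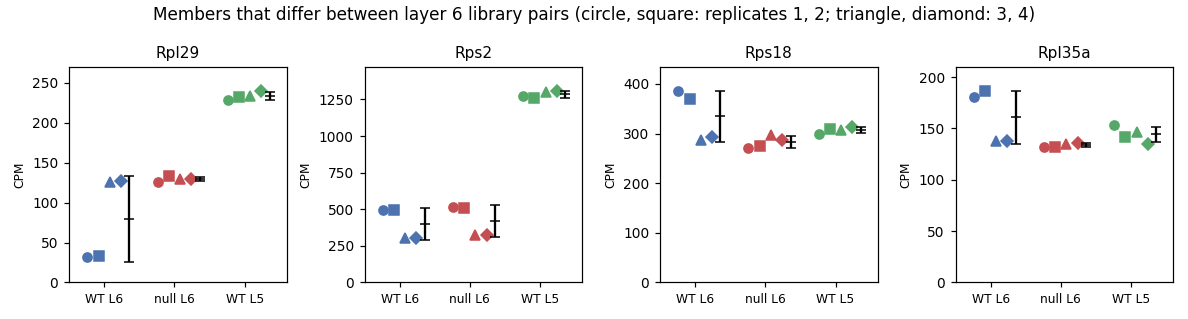
Level in CPM (vertical axes, from 0) of 4 members that differed between library pairs, with replicates 1 and 2 as circle and square, replicates 3 and 4 as triangle and diamond, and the mean and SD in black. Rpl29 is low only in WT layer 6 replicates 1 and 2, Rps2 splits both layer 6 groups, and Rps18 and Rpl35a are high in WT layer 6 replicates 1 and 2.

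With WT replicates 1 and 2 left out, 0 members were higher and 1, Rpl13a, lower, while 831 of all genes were higher and 675 lower. With WT replicates 3 and 4 left out, 2 were higher (Rpl29 and Rpl10) and 4 lower (Rpl35a, Rps14, Rps18 and Rps4l), while 1010 of all genes were higher and 917 lower. The same WT pairs stood apart in Xist, which the null libraries held at 262 to 299 CPM, near WT replicates 3 and 4. Xist was thus uneven between null and WT layer 6. Sex is not given for these libraries, so its balance between the 2 groups is not known. The part of the pair in these values was not tested.

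Among other translation genes in null layer 6, none of 77 mitochondrial ribosomal protein genes was called by edgeR, with 9 higher and 1 lower at an unadjusted p under 0.05 and 0 higher and 1 lower by DESeq2. Of 52 ribosome biogenesis and polymerase I genes, 1 was higher (Utp20) and 2 lower (Polr1d and Ubtf, an activator of polymerase I, -0.11 ± 0.028). Of 38 initiation factors, 2 were higher (Eif4a1 and Eif4g2) and 1 lower. That gene was Eif1b, at 122 ± 4.47 CPM in WT and 80.2 ± 2.76 CPM in null layer 6 (-0.60 ± 0.037, adjusted p = 2.65e-07). Of the 9 genes listed as elongation factors, Eif5a2 was higher (0.16 ± 0.049). Of 18 non-members whose transcripts start with a pyrimidine tract, some of them also in the lists above, 4 were higher and 1, Snhg1, was lower. The higher were Nap1l1, Pabpc1, Tpt1 and Vim. Those are 22.2% and 5.56% of that list, beside the 7.31% and 6.86% of all genes given above. In the list of 36 genes for mTOR signalling to translation, 2 were higher and 2 lower, Ddit4 among the lower. The higher were Myc and Rps6ka2, from the Myc and Rps6ka families that this list also holds.

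Null layer 6 set against WT layer 5 also had most members lower in layer 6, and the layer 5 libraries are shared with the comparison above. Of 83 members tested, 77 (92.8%) were lower in null layer 6 and 5 higher, beside 84.3% of 15013 genes called, 41.8% lower and 42.4% higher. The median was -0.60 beside 0.00 over all genes. The 5 that were higher were Rpl22, Rpl7l1, Rps19bp1, Rps27l and Rps4l. Rpsa, at 1103, 1097, 1091 and 1100 CPM in null layer 6, differed from layer 5 by -1.66 ± 0.017, and Rplp1 by -1.41 ± 0.023. Rps27 was not called (-0.35 ± 0.22, adjusted p = 0.157).

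Across the 3 groups the order of levels was thus similar for most members. Rpsa had 1102, 1098 and 3456 CPM in WT layer 6, null layer 6 and WT layer 5, and the layer 6 groups did not differ beyond their spread. Rps4l ordered the other way, with 22.2 ± 2.40 CPM in WT layer 6, 16.7 ± 2.58 in null layer 6 and 6.45 ± 0.640 in WT layer 5. Rpl7l1 had 82.3 ± 1.07, 82.1 ± 1.15 and 55.7 ± 3.63 CPM, again with no difference beyond the spread between the layer 6 groups.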

How the data were processed

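The authors deposited a table of gene counts (whole reads, 1 column for each of 12 RNA libraries), and 0 of its columns were left unmatched. Per the submitters' processing notes, STAR 2.5.2b, HTSeq and bedtools were used. The sources used here do not give the gene annotation, the build used for RNA, the strand setting or the treatment of reads shared between copies. The authors also deposited whole-number scores with equal medians in all libraries, made in a way the sources used here do not state, which served only for signs. Precision is set by library totals between 27465597 and 54899002 counts.

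Counts were tested over the whole table with edgeR 4.0.16 in R 4.3.3 (limma 3.58.1 installed with it) on the 2 groups compared: filterByExpr by group, TMM, quasi-likelihood F-test, Benjamini-Hochberg over all genes tested, called at 0.05. The standard error of a log2 fold change is its size over the square root of F. CPM use TMM-scaled totals over 12 libraries. DESeq2 1.42.0 was an alternative. The script was tested on simulated data.

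Members and lists were chosen with earlier results of these data known, so no list was tested. Named were, in each comparison, the 8 highest and 8 lowest called members with a mean of at least 5 CPM, the stalk genes, paralogs and their partners, Rpsa, Rpl5, Rpl11, Rps19, Rps27a and Rps19bp1, and few non-members by adjusted p; others were chosen after their values were seen. The counts cover all members, and 1 member and 1 other gene are not reported here by name. Replicate numbers were not used as a block in the main test, since same-numbered deviations correlated at 0.0132 at most. Promoter windows are from RefSeq GRCm38.p6 and matched 66 members by symbol. Chromatin peaks in mm9 were not joined to members, as no mm9 gene annotation was at hand, and proteins of paralogs were not compared. Alternatives changed the scaling, tool, filter, samples, block and members.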

Additional observations from a re-analysis of the deposited data

Results flagged for a closer look

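In groups of 4 libraries, 1 library lay far from the other 3 (Dixon's test at 95%) for 6 of 120 sets of 4 tested, and chance gives about 1 in 20. In WT layer 6, Rpl26 was lowest in replicate 2, at 0.269 CPM, and Rps29 was lowest in replicate 1, at 360 CPM. In null layer 6, Rpl34 was lowest in replicate 1, at 4.08 CPM. In WT layer 5, Rpl30 was lowest in replicate 1, at 10.8 CPM, Rpl36al was highest in replicate 4, at 77.5 CPM, and Rps19bp1 was lowest in replicate 2, at 14.7 CPM.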

How the results depend on the processing

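Between null and WT layer 6, the number of members called lower was 2 of 83, beside 1001 of all genes. It was 9 with no scaling beyond library totals (all genes 1238) and 4 with upper quartile scaling (1035). DESeq2 gave 9 (10.8%, beside 7.86% of all genes), and all 3 groups in 1 fit gave 11 (all genes 1298). The number was 0 with libraries summed 2 by 2 (230), and 1 without paralogs, Rps19bp1 and low counts. It was 0 to 3 without 1 library (753 to 880). In none of these settings was a member higher. Chosen after seeing the data, leaving out WT layer 6 replicates 1 and 2 gave 1, and leaving out 3 and 4 gave 4 lower and 2 higher. The cause was not tested.

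With the replicate number as a block, 0 members were called lower between null and WT layer 6 (adjusted p of 0.0763 for Rps4l), beside 714 of all genes. In layer 5 against WT layer 6 there were 76 higher and 6 lower, beside 6245 and 6430 of all genes. Same-numbered libraries of null and WT layer 6 correlated at -0.14 to -0.0731, and the numbers were taken as no pairing.

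For layer 5 against WT layer 6, the median of 0.59 was 0.55 with no scaling, 0.61 with DESeq2's size factors in edgeR, 0.68 with upper quartile, 0.55 with no filter, 0.56 with libraries summed 2 by 2, and 0.56 to 0.60 without 1 library. Without paralogs, Rps19bp1 and low counts, 1 member was lower. For null layer 6 against layer 5, the median of -0.60 was -0.68 with upper quartile, -0.56 with no filter, -0.67 without paralogs, Rps19bp1 and low counts, which left 1 member higher, and -0.62 to -0.57 without 1 library. None of the values followed turned its direction after passing the threshold. Both calls between null and WT layer 6 were lost in 7 or more settings (Rps4l in 7), and single calls were lost for Rps27 (2) and Rpl22 (1, null layer 6 against layer 5, upper quartile, adjusted p = 0.0941). Peaks at promoters were not run.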

Other observations

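Ribosomal protein genes often carry small nucleolar RNAs (snoRNAs), which guide the modification of ribosomal RNA, in their introns. In RefSeq, 30 of the 87 members (34.5%) held an annotated snoRNA, with or without a snoRNA name, beside 372 of 21900 protein-coding genes (1.7%). In layer 5 against WT layer 6, the median log2 fold change was 0.63 over the 30 with a snoRNA and 0.58 over the 53 tested without one.

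AAGATGGC, a motif of the factor YY1, stood in the promoter window (250 bases before to 50 after the start, both strands) of 6 of 66 members (9.09%) and of 3.19% of all genes. The 6 were Rpl13a, Rpl22, Rpl35a, Rpl7l1, Rps15a and Rps27. In layer 5 against WT layer 6, their median log2 fold change was -0.04, beside 0.56 over the 56 other tested members with a window. The 6 include 2 of the 5 members that were lower in layer 5, 1 of the 2 not called, and the smallest rise. Rpl13a and Rps27 went the other way, by 0.67 ± 0.027 and 0.73 ± 0.25, both above the 0.56. Rps27 had only 1.03 ± 0.317 CPM in WT layer 6. The median of the 6 thus lies between members that differ in direction. The motif was noticed after the values were seen and is a description of few genes, with no test.

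Over the 12 libraries, the non-members whose log2 CPM followed the mean of the members most closely (Pearson's r among 11014 genes, a description in which layer and batch are shared) were Cox8a, a subunit of cytochrome c oxidase (0.999), Cd93, Aldoa, Ttpa and Zdhhc2.

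In the authors' deposited table of scores, the sign was the same as here for 2 of 2 members called between null and WT layer 6, for 77 of 81 between layer 5 and WT layer 6, and for 77 of 82 between null layer 6 and layer 5. The 4 members with the other sign between layer 5 and WT layer 6 were Rpl15, Rpl26, Rpl5 and Rps15a. The median log2 difference of the members there was 0.40, beside -0.04 over all genes in the table.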
